A study of Mus musculus with 16 samples.

Results

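The 62 genes described here are the mouse protein-coding genes whose symbol is Zfp followed by 3 digits of which the first is 9, among 21883 protein-coding genes annotated on the assembled chromosomes of GRCm38. The rule goes by symbol and uses no measured value, and 305 other genes named Zfp and a number stand beside them where a comparison helps. ChIP-seq, the sequencing of DNA pulled down with an antibody, measured them in mouse neural stem cells, grown as neurospheres from E14.5 telencephalic cortex, plated on Matrigel and fixed with 1% formaldehyde. The groups are Setd5+/- cells, heterozygous for the chromatin gene Setd5, and wild-type cells, each with H3K36me3, H3K36me2, H3K4me3, H3K27ac, H3K4me1 and H3K27me3. A SETD5-V5 library, in which V5-tagged SETD5 was pulled down with an antibody to the tag, comes from cells labelled wild type. Each mark has 1 library per genotype, so no difference below has a replicate check and none was tested. The sources used here give neither strain nor number of embryos, and no V5 library of untagged cells was analysed here.

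Most numbered Zfp genes encode proteins with tandem C2H2 zinc fingers that bind DNA, and many carry a KRAB domain. The KRAB domain recruits the corepressor TRIM28, which brings in SETDB1, an H3K9 methyltransferase, and HP1 proteins, and the best known targets are retrotransposons. These genes arose by repeated local duplication, and the arrays on mouse distal chromosomes 2 and 4 are young and differ between rodent lineages. H3K36me3 is laid down along transcribed gene bodies. H3K4me3 and H3K27ac mark active promoters, H3K4me1 flanks promoters and marks enhancers, and H3K27me3 is the Polycomb mark. A gene's covered percent is the share of its annotated span, with 2 kb added on each side, that lies under enriched islands as the authors called them. A gene counted as marked at 25% or more, and as changed where the genotypes differed by 25 percentage points or more. A promoter mark is an island within 1 kb of any annotated start, some genes having several. For the 7 members with no annotated start (Zfp930, Zfp934, Zfp960, Zfp978, Zfp990, Zfp991 and Zfp992), either end of the span was used, which need not be the promoter.

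The members lay on 13 chromosomes and 42 of them sat in 8 local clusters, defined by gaps of at most 500 kb between neighbouring members. Chromosome 4 held 14 members, chromosome 17 held 13, chromosome 2 held 10, chromosome 7 held 9 and chromosome 8 held 5. No member lay on chromosome 1 or 15, so of the chromosomes given apart (1, 4 and 15) only chromosome 4 matters for the members. Genotype differences on these chromosomes were unlike the rest. H3K36me2 reached 25% on 3.14% of all genes in Setd5+/- and 1.10% in wild-type cells. Outside these chromosomes the shares were 0.555% in Setd5+/- and 1.03% in wild-type cells. Whether a rise on these chromosomes belongs to the gene or to the whole chromosome was not tested. Member spans ran from 6.79 to 479 kb with a median of 23.3 kb. On chromosome 4 the spans of Zfp981 and Zfp993 overlap, as do those of Zfp978 with Zfp991 and with Zfp988, so these pairs share islands.

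Start regions showed how alike neighbouring members are, and how the arrays differ from each other. The sequences below are the 250 bases before an annotated start, from RefSeq (GRCm38.p6), written 5′ to 3′ with each CpG in capitals. Zfp966 (chr2:175931101-175931350, minus strand), Zfp967 (chr2:176520754-176521003, plus strand) and Zfp973 (chr2:176670272-176670521, plus strand) come from the chromosome 2 arrays. These 3 are shown because many reads of 50 bases cannot be assigned between copies this similar: Zfp966 shares all 251 windows of that length with Zfp967 and 175 with Zfp973.
Zfp966: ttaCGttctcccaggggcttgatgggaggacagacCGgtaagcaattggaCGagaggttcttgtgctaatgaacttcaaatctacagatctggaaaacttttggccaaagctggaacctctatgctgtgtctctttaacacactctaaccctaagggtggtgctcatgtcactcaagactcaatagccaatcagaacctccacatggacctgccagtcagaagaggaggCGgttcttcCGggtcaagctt
Zfp967: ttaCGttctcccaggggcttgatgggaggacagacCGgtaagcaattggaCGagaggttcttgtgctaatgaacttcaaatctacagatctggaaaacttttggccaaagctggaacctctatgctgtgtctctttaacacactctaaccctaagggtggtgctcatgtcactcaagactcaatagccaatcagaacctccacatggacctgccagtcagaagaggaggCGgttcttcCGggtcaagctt
Zfp973: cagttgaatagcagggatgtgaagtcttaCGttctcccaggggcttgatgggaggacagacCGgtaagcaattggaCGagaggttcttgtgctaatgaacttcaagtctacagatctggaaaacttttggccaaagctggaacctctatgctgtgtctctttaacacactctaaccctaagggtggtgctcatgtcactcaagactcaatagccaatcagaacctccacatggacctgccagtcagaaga

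All 250 bases of Zfp966 and Zfp967 are identical, although the genes lie on opposite strands, and Zfp966 matches Zfp973 at 223 of 224 aligned bases (99.6%) after a shift. Zfp980 (chr4:145670447-145670696, plus strand) and Zfp987 (chr4:146097062-146097311, plus strand) stand for the chromosome 4 array, where SETD5-V5 covered both genes whole.
Zfp980: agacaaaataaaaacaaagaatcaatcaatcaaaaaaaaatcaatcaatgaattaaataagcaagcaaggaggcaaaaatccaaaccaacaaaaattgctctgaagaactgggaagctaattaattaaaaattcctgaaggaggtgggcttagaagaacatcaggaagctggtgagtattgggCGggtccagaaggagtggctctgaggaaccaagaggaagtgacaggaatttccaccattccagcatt
Zfp987: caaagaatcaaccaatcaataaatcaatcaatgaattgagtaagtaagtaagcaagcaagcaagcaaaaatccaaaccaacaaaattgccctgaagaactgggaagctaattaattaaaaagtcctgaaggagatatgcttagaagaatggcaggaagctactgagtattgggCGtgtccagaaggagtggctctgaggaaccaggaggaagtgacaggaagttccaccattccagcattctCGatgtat

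This pair is 76.7% identical over 240 aligned bases, with 1 and 2 CpG in the window. Zfp958 (chr8:4612920-4613169, plus strand) and Zfp956 (chr6:47953140-47953389, plus strand) are members outside those arrays with H3K4me3 and H3K27ac at their starts in both genotypes, and Zfp958 had the most wild-type H3K36me3 of all members.
Zfp958: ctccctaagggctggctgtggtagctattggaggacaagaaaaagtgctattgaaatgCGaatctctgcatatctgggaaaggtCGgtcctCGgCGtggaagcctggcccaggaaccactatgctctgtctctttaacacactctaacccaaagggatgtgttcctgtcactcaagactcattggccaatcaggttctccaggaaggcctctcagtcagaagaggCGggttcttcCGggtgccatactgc
Zfp956: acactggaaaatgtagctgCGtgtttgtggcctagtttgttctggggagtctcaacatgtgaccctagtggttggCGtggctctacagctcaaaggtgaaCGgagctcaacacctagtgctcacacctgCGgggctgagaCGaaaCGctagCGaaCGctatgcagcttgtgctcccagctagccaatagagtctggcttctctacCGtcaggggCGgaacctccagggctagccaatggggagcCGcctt

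These windows hold 6 and 11 CpG, against 5, 5 and 3 in the Zfp966, Zfp967 and Zfp973 windows. The Zfp958 window is 52.6% identical to those of Zfp966 and Zfp967 over 249 bases and 53.4% identical to that of Zfp973 over 223 bases. The remaining pairs of printed windows, each from different chromosomes, gave between 29.2% and 36.8% under the same best-shift alignment.

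Across the 55 members with a RefSeq promoter entry of 300 bases, the median was 8 CpG, against 13 for 17491 protein-coding genes, and the observed over expected CpG ratio was 0.412 against 0.576. Wild-type members with H3K4me3 and H3K27ac at the start had a median of 10 CpG (n = 30), those with H3K4me3 without H3K27ac 5 (n = 14) and those without H3K4me3 4 (n = 11). By chromosome the median was 5 on chromosome 2 (n = 10), 4.5 on chromosome 4 (n = 10) and 10.5 on chromosome 17 (n = 12). The groups by mark partly follow the arrays, whose copies are not independent. Each promoter was also cut into its 251 windows of 50 bases. At least 1 window occurred unchanged in the promoter of another gene for 28 of the 55 members, and all 251 did so for 6 members, which are Zfp931, Zfp966, Zfp967, Zfp968, Zfp970 and Zfp973, all on chromosome 2. The median on chromosome 2 was 251 shared windows, against 4.5 on chromosome 4 (10 members with an entry) and 9 on chromosome 17. These counts compare promoter entries of 300 bases with each other. They do not measure how repeated the rest of an array is, such as the sequence under the SETD5-V5 islands of chromosome 4. The sources used here do not say how reads that align to several places were treated, and the part of this in the values of these genes was not tested.

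**Figure D1:**
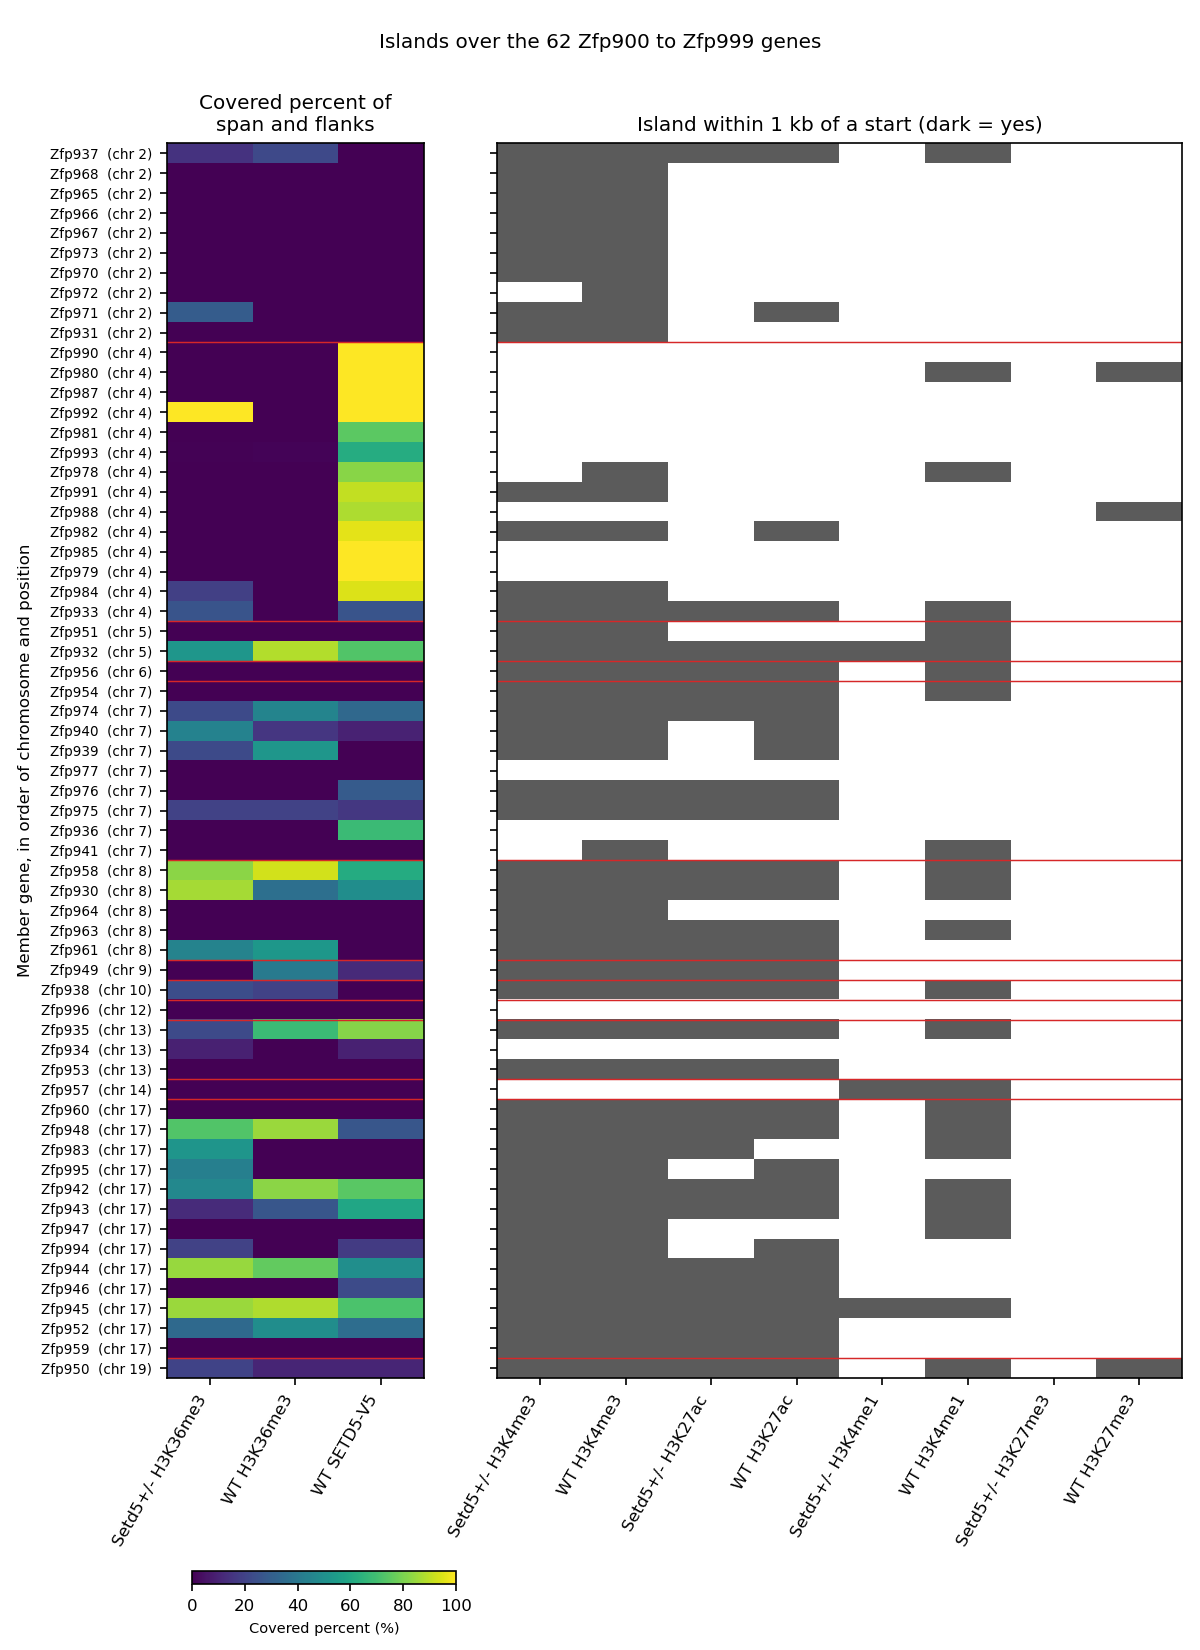
Each row is a member gene in order of chromosome and position; the left panel colours the covered percent of the span with 2 kb flanks (0 to 100%) for H3K36me3 in Setd5+/- and wild-type (WT) cells and for SETD5-V5, and the right panel is dark where an island lies within 1 kb of a start. The chromosome 4 block stands out by SETD5-V5 over all 14 members, and the chromosome 2 block by H3K4me3 with almost no H3K27ac, H3K36me3 or SETD5-V5.

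SETD5-V5 covered 27 of the 62 members at 25% or more (43.5%), where 17.5% of all protein-coding genes and 35.7% of the other numbered Zfp genes were covered. All 14 members on chromosome 4 were among them, and 13 of the 48 members elsewhere (27.1%), against 16.1% of all genes outside chromosomes 1, 4 and 15. The covered percent averaged 86.7% on chromosome 4 and 16.9% elsewhere. None of the 10 members on chromosome 2 had any SETD5-V5, and of the 13 on chromosome 17, 6 passed 25%.

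The chromosome 4 cluster runs from chr4:145510759-147849126, over 2338 kb, and holds 14 members among 18 protein-coding genes. SETD5-V5 islands covered 71.4% of this stretch. Zfp990, Zfp980, Zfp987, Zfp992, Zfp985 and Zfp979 were each covered over 100% of span and flanks. Zfp982 had 95.8% SETD5-V5 coverage, Zfp984 94.9%, Zfp991 90.9%, Zfp988 87.7%, Zfp978 82.3%, Zfp981 74.9% and Zfp993 62.1%. Zfp933, at the distal end of the cluster, had the least, 25.9%, just inside the 25% limit. The genes between the members were covered as well, with 100% for Gm13212, Zfp600 and Zfp534 and 81.6% for Rex2, and the coverage went on before Zfp990, where Gm42346 outside the cluster had 100%. Tnfrsf8, farther out on that side, and Miip, just beyond Zfp933, had 0%.

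The islands here were long and dense. The longest was 182 kb wide, held 5691 reads (31.3 per kb, 95% Poisson interval 30.5 to 32.2) and ran under Zfp978, Zfp988 and Zfp982. An island of 83.2 kb under Zfp982 and Zfp985 had 41.8 reads per kb. The 22 SETD5-V5 islands over these members had a median of 27 reads per kb (range 15.2 to 41.8), which is at the 97.4th percentile of the list. The 21 islands over members elsewhere had a median of 17.1, near the 17.7 of all 6143 SETD5-V5 islands. Such intervals cover counting error alone, because amplified reads carried no molecular identifiers and need not be separate molecules. The cluster held 1.96% of all SETD5-V5 island reads in 1.4% of the island length. Of 2732 windows of 1 Mb, the 3 that hold the cluster ranked 1, 2 and 4 by SETD5-V5 coverage, with 76.7%, 59.6% and 45.5%, against a median window of 1.84%. Other windows among the first 10 had wide SETD5-V5 as well. Those on chromosome X (36.8% to 41.8%) and chromosome 14 (38.4%) had no H3K36me3 in either genotype. Those on chromosomes 8 (58.6%) and 1 (37%) had some, 29.1% and 5.76% in wild-type cells. The inputs were not analysed here, so the signal of the repeated sequences in the cluster without an antibody was not tested.

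**Figure D2:**
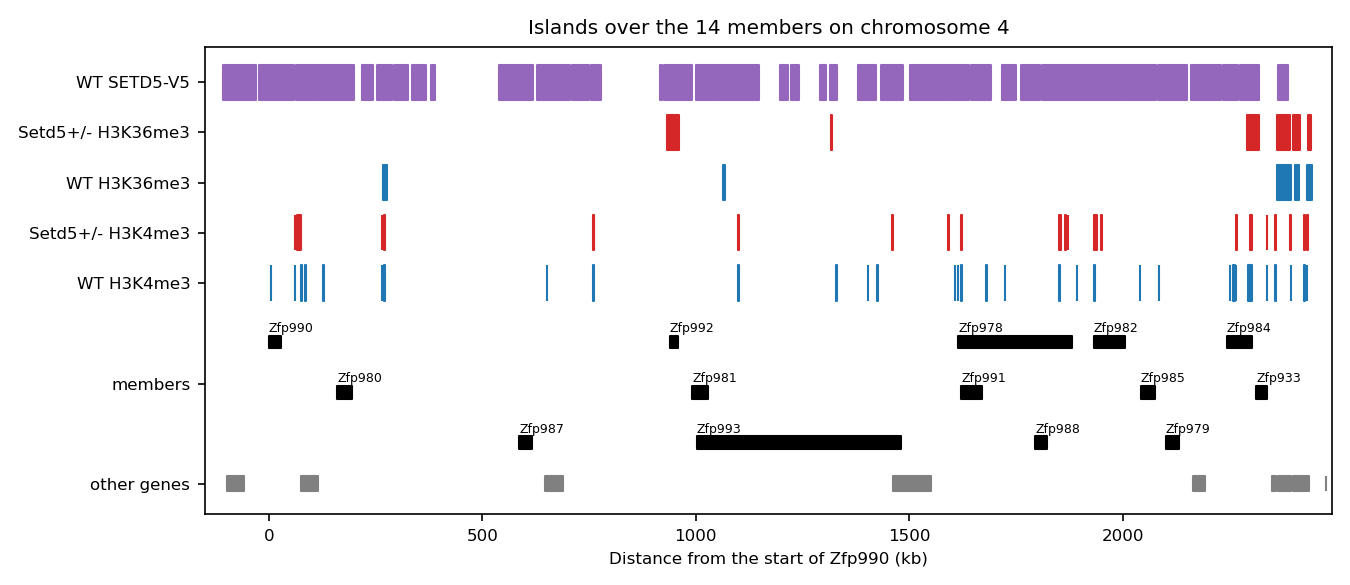
Islands (coloured bars) of SETD5-V5, H3K36me3 and H3K4me3 along the chromosome 4 cluster, by distance in kb from the start of Zfp990, with the 14 members in black on 3 staggered lines and other protein-coding genes in grey. SETD5-V5 fills 71.4% of the cluster, while H3K36me3 covers 2.46% of it in Setd5+/- and 0.582% in wild-type (WT) cells.

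The same stretch had almost none of the transcription-linked mark. H3K36me3 covered 2.46% of the cluster in Setd5+/- cells, in 3 islands with 1215 reads, and 0.582% in wild-type cells, in 2 islands with 170 reads. H3K36me2 had no island there in either genotype. H3K4me3 covered 2% of the cluster in Setd5+/- and 1.95% in wild-type cells, and H3K27ac 0.835% in Setd5+/- and 0.596% in wild-type cells. H3K4me1 covered 0.676% in Setd5+/- and 0.903% in wild-type cells, and H3K27me3 0.898% in Setd5+/- and 0.958% in wild-type cells. H3K9me3 was not analysed here.

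On chromosome 4, SETD5-V5 lay over members that had no H3K36me3, while over most other genes the 2 came together. In wild-type cells 15 members (24.2%) had SETD5-V5 over at least 25% and H3K36me3 at 0, where 1.08% of all protein-coding genes did. On chromosome 4 this held for 13 of 14 members, and the remaining 1, Zfp993, had 0.995% H3K36me3. The pattern was not limited to members. Gm13212, Zfp600, Rex2 and Zfp534 inside the cluster, and Gm42346 before it, also had SETD5-V5 and no H3K36me3 in either genotype. Among all genes with SETD5-V5, 92.4% also had wild-type H3K36me3 at 25% or more, and 93.6% among the other numbered Zfp genes. Members outside chromosome 4 stood near this, with 11 of 13 (84.6%). The exceptions were Zfp936, with 68% SETD5-V5 and no H3K36me3, and Zfp976, with 28.9% and none, both in the chromosome 7 cluster.

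Both marks together covered 11 members at 25% or more (against 16.2% of all genes). Zfp935 on chromosome 13 had the most SETD5-V5 outside chromosome 4, 81.8%, beside 68.3% wild-type H3K36me3. Zfp942 had 74.5% SETD5-V5 and 82.5% wild-type H3K36me3, and Zfp932 had 72.9% SETD5-V5 and 88.5% H3K36me3. Zfp945 had 71.5% SETD5-V5 and 88.2% wild-type H3K36me3, and Zfp958 had 61.5% SETD5-V5 and 93% H3K36me3. ZFP932 is known in mouse as a KRAB repressor of endogenous retroviruses. Zfp943 had 59.1% SETD5-V5, Zfp944 49.6%, Zfp930 49.1%, Zfp952 35.8%, Zfp974 33.9% and Zfp948 26.6%, all with wild-type H3K36me3 above 25%. The reverse, H3K36me3 without SETD5-V5 at 25%, was found at Zfp939 and Zfp961, with no SETD5-V5 at all, and at Zfp949, with 11.8%. These are 3 of 62 members, where 13.6% of all genes had H3K36me3 without SETD5-V5. Put the other way, 78.6% of members and 54.4% of all genes with wild-type H3K36me3 had SETD5-V5.

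**Figure D3:**
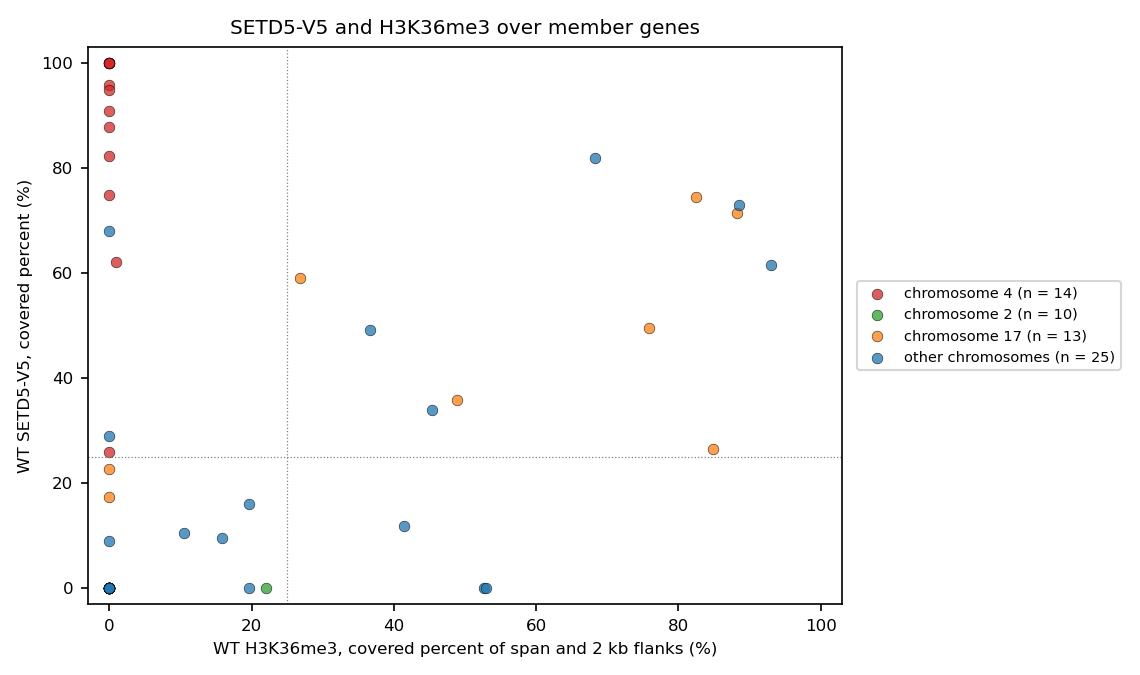
SETD5-V5 covered percent against wild-type (WT) H3K36me3 covered percent, 1 point per member (62 in all, several at 0 on both axes), coloured by chromosome, with dotted lines at 25%. The 14 chromosome 4 points climb the left edge at H3K36me3 of 0 to 0.995%, while 11 points of other chromosomes lie above 25% on both axes.

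As a promoter mark SETD5-V5 was found at 15 members (24.2%), where 4.97% of all genes had it. Of these, 13 lie on chromosome 4, and the others are Zfp934 and Zfp930, which have no annotated start. At Zfp930 the SETD5-V5 island lay at the end opposite to its H3K4me3, H3K27ac and H3K4me1 islands. Outside chromosome 4 the share was 4.17%, against 4.25% of all genes outside chromosomes 1, 4 and 15.

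H3K36me3 was present at 25% or more on 15 members in Setd5+/- cells (24.2%) and on 14 in wild-type cells (22.6%), where 30.7% of all genes passed in Setd5+/- and 29.8% in wild-type cells. The other numbered Zfp genes stood at 59.7% in Setd5+/- and 56.1% in wild-type cells. In both genotypes 9 members passed, where 26.6% of all genes did. Another 6 members passed in Setd5+/- cells only (4.15% of all genes) and 5 in wild-type cells only (3.24% of all genes). No H3K36me3 in either genotype was found at 34 of 62 members, near the 58.0% of all genes. Mean coverage was 17.6% in Setd5+/- and 15.7% in wild-type cells. All 14 members with wild-type H3K36me3 had H3K4me3 and H3K27ac at the start, as did 95.7% (H3K4me3) and 82.5% (H3K27ac) of all genes with wild-type H3K36me3. Of the other 48 members 34 had H3K4me3 (70.8%, against 45.1% of all genes under the limit) and 18 had H3K27ac (37.5%, against 19% of all genes under the limit).

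Between genotypes, 7 members had H3K36me3 higher in Setd5+/- cells by 25 points or more (11.3%) and 5 had it lower (8.06%). Over all genes 4.83% were higher and 4.60% lower, and over the other numbered Zfp genes 8.85% were higher and 6.56% lower. Without chromosome 4, 5 of 48 members were higher and 5 lower (10.4% each), where 3.42% of all genes outside chromosomes 1, 4 and 15 were higher and 4.97% lower. On chromosome 4 as a whole, 7.91% of protein-coding genes were higher and 4.07% lower. The mean difference, Setd5+/- minus wild type, was 1.87 points over all members, −0.59 without chromosome 4 and −0.101 over all genes, and the median was 0 in each case. Both shares were above those of all genes and nearer to those of the other numbered Zfp genes, and gains and losses were nearly equal in number; with 1 library per genotype neither was tested. When only islands at or above the median density of their own list were kept, 2 members were higher and 2 lower.

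Zfp992 on chromosome 4 had the largest rise, with 100% H3K36me3 in Setd5+/- and 0% in wild-type cells. The Setd5+/- island there was 28.8 kb wide with 420 reads, or 14.6 per kb (95% Poisson interval 13.2 to 16), at the 26.1st percentile of its list. Zfp983 had 52.2% in Setd5+/- and 0% in wild-type cells, and Zfp995 had 43.2% in Setd5+/- and 0% in wild-type cells, both in the chromosome 17 cluster. Their Setd5+/- islands held 14.8 and 12.4 reads per kb, at the 29.5th and 3.32nd percentiles. With the denser islands only, Zfp992, Zfp983 and Zfp995 had 0 in both genotypes. Zfp995 was also at 0 in both when the lists were cut to equal covered length by density.

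Zfp930 on chromosome 8 had 86.7% in Setd5+/- and 36.6% in wild-type cells. Its Setd5+/- island had 369 reads over 23.2 kb and its wild-type island 147 reads over 9.6 kb. The densities were nearly the same, 15.9 reads per kb in Setd5+/- and 15.3 in wild-type cells, but stood at the 46th percentile in the Setd5+/- list and the 91.5th in the wild-type list. With denser islands only, the direction turned, with a difference of −36.6 points at Zfp930. Zfp940 had 44.4% in Setd5+/- and 15.9% in wild-type cells, from a second island of 7.2 kb present in Setd5+/- cells only, and with denser islands only the difference was 0, since that second island was left out. Zfp971 on chromosome 2 had 29% in Setd5+/- and 0% in wild-type cells, from a single island of 4.8 kb with 81 reads. With flanks of 10 kb the rise was 14.7 points at Zfp971 and 21.3 points at Zfp940, both under the limit.

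The distal end of the chromosome 4 cluster had the densest of these islands. A Setd5+/- island of 26.4 kb with 733 reads, 27.8 per kb (95% Poisson interval 25.8 to 29.9), lay at the 99th percentile of its list and had no wild-type counterpart. It covered 25.9% of Zfp933 and 19% of its neighbour Zfp984, against 0% of both in wild-type cells. Zfp933 passed narrowly, and was at 22.2 points without flanks, under the limit, while Zfp984 did not pass. The island spans the start of Zfp984, where H3K4me3 had 540 reads over 5.8 kb in Setd5+/- and 548 reads over 9.2 kb in wild-type cells. It ends at the same base, 147828800, as a SETD5-V5 island of 44 kb with 1561 reads. Over the chromosome 4 cluster no H3K36me3 island of one genotype overlapped one of the other. The 12 shared H3K4me3 islands there had a median log2 ratio of reads per kb, Setd5+/- over wild type, of 0.02 relative to shared islands on autosomes other than 1, 4 and 15.

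Among the 5 members lower in Setd5+/- cells, Zfp935 had 22.4% in Setd5+/- and 68.3% in wild-type cells. The wild-type island spread 130 reads over 15.2 kb, 8.55 per kb, at the 1.43rd percentile of its list. Zfp949 on chromosome 9 had 0% in Setd5+/- and 41.4% in wild-type cells, from an island with 111 reads and 9.91 per kb at the 14.8th percentile. Zfp939 on chromosome 7 had 22.5% in Setd5+/- and 52.6% in wild-type cells, with a wild-type island of 8.45 reads per kb at the 1.2nd percentile. Zfp949 and Zfp939 were at 0 in both genotypes when only denser islands were kept, and Zfp935 then turned to 22.4 points higher in Setd5+/- cells.

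Zfp942 had 46.5% in Setd5+/- and 82.5% in wild-type cells, where 2 Setd5+/- islands of 13.6 and 4.8 kb stood against 1 wild-type island of 33.6 kb. With denser islands only it was 12.1 points higher in Setd5+/- cells. Zfp932 had 52.6% in Setd5+/- and 88.5% in wild-type cells. Its islands were above the median of both lists, with 193 reads over 10.4 kb in Setd5+/- and 238 reads over 18.4 kb in wild-type cells, and the difference kept its size with denser islands only. With flanks of 10 kb the difference at Zfp932 was −22.4 points, under the limit, and Zfp939 did not pass either.

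Smaller differences did not pass the limit. Zfp974 had 22.6% in Setd5+/- and 45.3% in wild-type cells, and Zfp952 had 34.3% in Setd5+/- and 48.9% in wild-type cells. Zfp943 had 12.2% in Setd5+/- and 26.8% in wild-type cells, and Zfp948 had 72.7% in Setd5+/- and 84.8% in wild-type cells. Zfp958 had 82.8% in Setd5+/- and 93% in wild-type cells, and Zfp961 had 44.7% in Setd5+/- and 53% in wild-type cells. These were all lower in Setd5+/- cells, and so were Zfp937, with 14.7% in Setd5+/- and 22% in wild-type cells, and Zfp945, with 84.9% in Setd5+/- and 88.2% in wild-type cells. In the other direction, Zfp944 had 84.6% in Setd5+/- and 75.8% in wild-type cells, and Zfp994 had 19.8% in Setd5+/- and 0% in wild-type cells. Zfp950 had 20.2% in Setd5+/- and 10.5% in wild-type cells, Zfp934 had 9.03% in Setd5+/- and 0% in wild-type cells, and Zfp938 had 23.5% in Setd5+/- and 19.6% in wild-type cells. Zfp975 had 19.6% in both. Several of these lie next to the 25% limit: Zfp943 just inside it in wild-type cells, and Zfp937 in wild-type cells and Zfp935, Zfp938, Zfp939 and Zfp974 in Setd5+/- cells just outside.

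Where both genotypes had an H3K36me3 island over a member, the median density was close between them once scaled. Ratios were centred on the shared (overlapping) islands of autosomes other than 1, 4 and 15, because the lists as wholes had medians of 16.2 reads per kb in Setd5+/- and 11.8 in wild-type cells. The 18 shared islands over members had a median centred log2 ratio, Setd5+/- over wild type, of 0.01, with quartiles of −0.09 and 0.12, close to the −0.11 and 0.11 of the 5977 islands used for centring. Single islands lay farther off. Before centring, Zfp935 had 18.5 reads per kb in Setd5+/- and 8.55 in wild-type cells, and Zfp939 had 14.7 in Setd5+/- and 8.45 in wild-type cells. Both Setd5+/- islands held more reads per kb, though the genes were lower in covered percent. These islands were also shorter, with 4 kb against 15.2 kb in wild-type cells at Zfp935 and 7.2 kb against 16.8 kb at Zfp939. Reads over the same bases were not compared. Zfp930, higher in covered percent, had 15.9 in Setd5+/- and 15.3 in wild-type cells. The differences in covered percent lie in how far the called islands reach, and in islands called in 1 genotype alone. Reads inside H3K36me3 islands numbered 3561439 in Setd5+/- and 2468530 in wild-type cells, over 202 Mb in Setd5+/- and 190 Mb in wild-type cells, and the sources used here give no total reads.

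**Figure D4:**
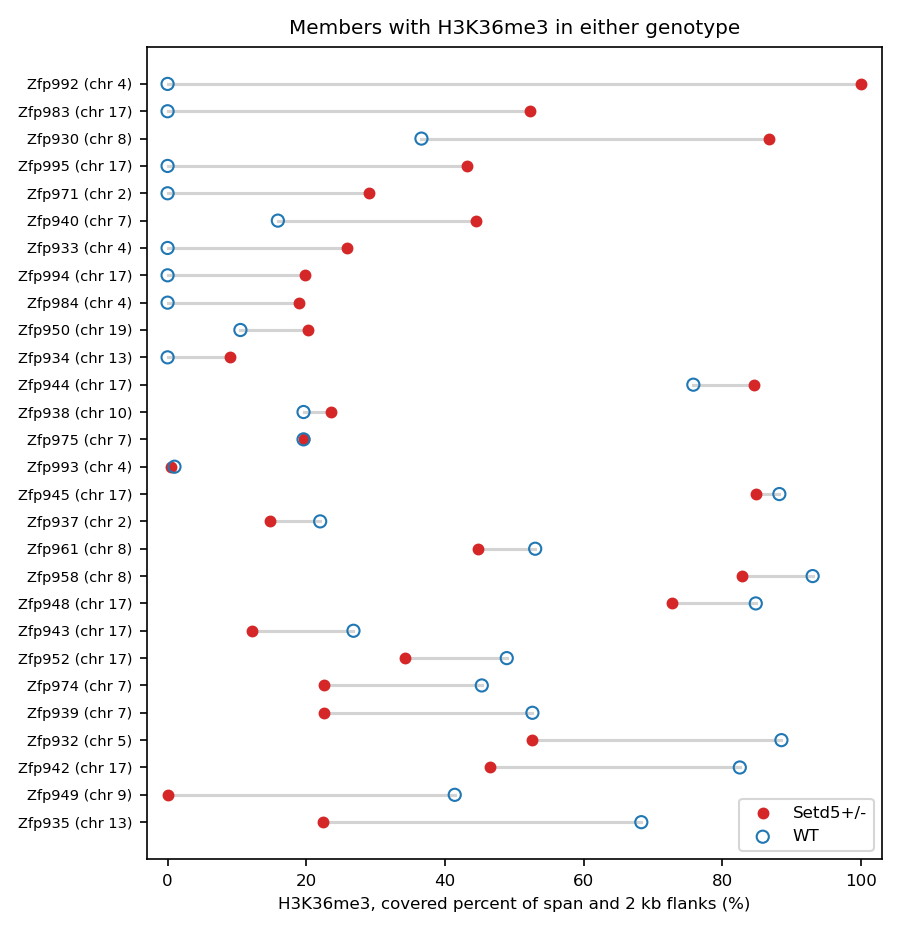
H3K36me3 covered percent of span and 2 kb flanks for the 28 members with any H3K36me3, filled red for Setd5+/- and open blue for wild-type (WT) cells, ordered from the largest rise in Setd5+/- cells at the top to the largest fall at the bottom. Points lie on both sides, from Zfp992 (100% in Setd5+/-, 0% in WT) to Zfp935 (22.4% in Setd5+/-, 68.3% in WT).

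H3K4me3 lay within 1 kb of a start at 45 members in Setd5+/- cells (72.6%) and 48 in wild-type cells (77.4%). The background was 58.6% in Setd5+/- and 60.2% in wild-type cells for all genes, and 91.1% in Setd5+/- and 93.1% in wild-type cells for the other numbered Zfp genes. None had H3K4me3 in Setd5+/- cells only (0.717% of all genes did) and 3 had it in wild-type cells only (4.84%, against 2.28% of all genes). Zfp972 on chromosome 2 had 27 wild-type reads, Zfp978 on chromosome 4 had 52, at an end of its span, and Zfp941 on chromosome 7 had 176, the last at 88 reads per kb. The 49 shared H3K4me3 islands over members had a median log2 ratio, Setd5+/- over wild type and centred in the same way, of 0.01.

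By array, chromosome 17 had H3K4me3 at all 13 members in both genotypes, chromosome 2 at 9 of 10 in Setd5+/- and 10 of 10 in wild-type cells, and chromosome 4 at 4 of 14 in Setd5+/- and 5 of 14 in wild-type cells. Median reads per kb of the promoter island were 150 in Setd5+/- and 137 in wild-type cells on chromosome 17. They were 66.4 in Setd5+/- and 56.6 in wild-type cells on chromosome 2, and 66.2 in Setd5+/- and 46.7 in wild-type cells on chromosome 4. These values are not centred, and on chromosomes 2 and 4 the genotypes' medians are over different members. Zfp972 and Zfp978, marked in wild-type cells only, had 33.8 and 32.5 reads per kb. Zfp933 on chromosome 4 had 260 reads per kb in Setd5+/- and 243 in wild-type cells, the highest density of all members in each genotype.

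On chromosome 2 the printed pair Zfp966 and Zfp967 had 57.9 and 48.8 reads per kb in Setd5+/- cells, and 56.2 and 57.0 in wild-type cells. Zfp973 had 66.4 in Setd5+/- and 52.9 in wild-type cells, and Zfp968 had 47.5 in Setd5+/- and 45.0 in wild-type cells. Zfp965 had 55.0 in Setd5+/- and 48.6 in wild-type cells. Higher values were found at Zfp970 (150 in Setd5+/-, 116 in wild type), Zfp971 (140 in Setd5+/-, 156 in wild type), Zfp931 (135 in Setd5+/-, 138 in wild type) and Zfp937 (149 in Setd5+/-, 131 in wild type). Among the near-identical copies a read cannot be placed with certainty, so these values need not belong to the named copy alone.

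H3K27ac marked the start of 27 members in Setd5+/- cells (43.5%, against 35.9% of all genes) and 32 in wild-type cells (51.6%, against 37.9% of all genes). Every member with wild-type H3K27ac also had H3K4me3, and 16 had H3K4me3 without it. Of those 16, 8 were the chromosome 2 genes Zfp931, Zfp965, Zfp966, Zfp967, Zfp968, Zfp970, Zfp972 and Zfp973. Only Zfp983 had H3K27ac in Setd5+/- cells alone, with 56 reads (1.61%, against 4.09% of all genes). Zfp995, Zfp994, Zfp971, Zfp982, Zfp940 and Zfp939 had it in wild-type cells alone (9.68%, against 6.16% of all genes), with 28 to 40 reads each. The Zfp982 island lay at another of its annotated starts than its H3K4me3. With denser islands only, 18 members had H3K27ac in Setd5+/- cells and 17 in wild-type cells, so the count was no longer lower in Setd5+/- cells. On chromosome 4, H3K27ac was present at Zfp933 in both genotypes, with 53 reads in Setd5+/- and 79 in wild-type cells.

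Zfp983 had Setd5+/- islands of H3K27ac and H3K36me3 where wild-type cells had neither, while its H3K4me3 was 130 reads per kb in Setd5+/- and 100 in wild-type cells. Zfp995, Zfp940 and Zfp971 went apart between the marks, with more H3K36me3 and no H3K27ac island in Setd5+/- cells. At Zfp939 both marks were lower in Setd5+/- cells.

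H3K4me1 was found at the start of 3 members in Setd5+/- cells (4.84%, against 16.6% of all genes) and 23 in wild-type cells (37.1%, against 34.8% of all genes). It was in wild-type cells only at 20 members (32.3%), where 21.4% of all genes followed the same pattern, and in Setd5+/- cells only at none (3.13% of all genes). The whole Setd5+/- H3K4me1 list was shorter, with 24243 islands against 35464 in wild-type cells. With the lists cut to equal covered length the wild-type count was 13, and with denser islands only it was 9. Zfp932, Zfp945 and Zfp957 had an H3K4me1 island in both genotypes.

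No member was covered at 25% or more by H3K27me3, where 2.83% of all genes were in Setd5+/- and 4.25% in wild-type cells. The same held for H3K36me2, where 3.14% of all genes were in Setd5+/- and 1.10% in wild-type cells. Outside chromosomes 1, 4 and 15 the direction of these H3K36me2 shares turned, with 0.555% in Setd5+/- and 1.03% in wild-type cells. The highest H3K27me3 coverage in Setd5+/- cells was 3.12%, at Zfp982, and in wild-type cells 9.86%, at Zfp988. At the start, no member had H3K27me3 in Setd5+/- cells (6.18% of all genes did), and Zfp950, Zfp980 and Zfp988 had it in wild-type cells (4.84%, against 7.94% of all genes), with 36 to 66 reads. H3K36me2 reached only Zfp957, at 2.17% in each genotype. On chromosome 4 as a whole, 6.63% of protein-coding genes in Setd5+/- and 0.753% in wild-type cells had H3K36me2 at 25% or more, yet none of the 14 members did.

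**Figure D5:**
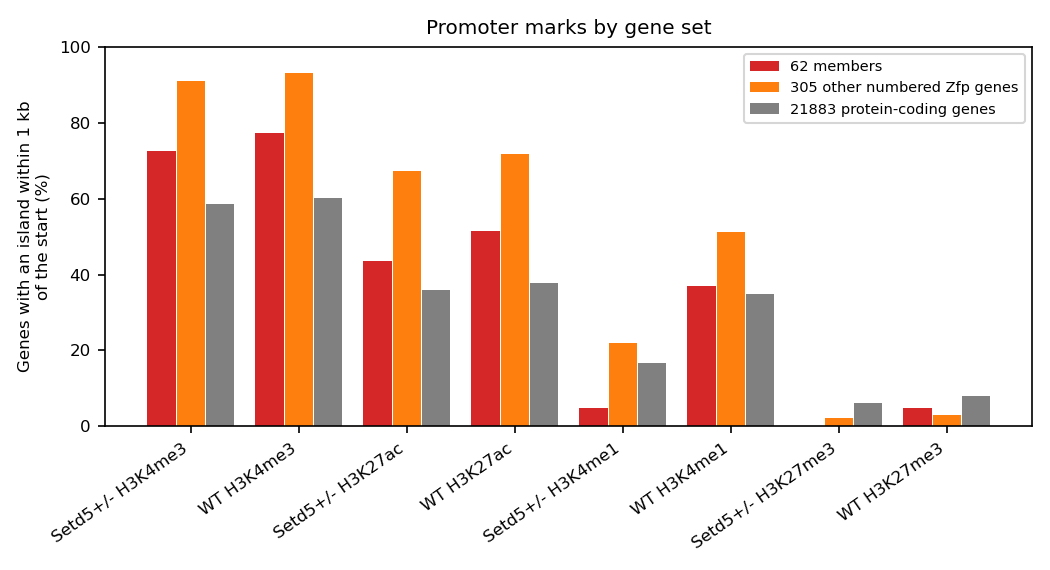
Bars give the percent of genes with an island within 1 kb of a start, for 62 members, 305 other numbered Zfp genes and 21883 protein-coding genes, by mark with Setd5+/- left of wild type (WT). Members lie between the other Zfp genes and all genes for H3K4me3 and H3K27ac, with H3K4me3 at 72.6% in Setd5+/- and 77.4% in WT.

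In 3 members, Zfp957, Zfp977 and Zfp996, there was no H3K4me3 at the start, no H3K36me3 and no SETD5-V5 in any library, as for 34.5% of all genes. Altogether 14 of 62 members had no promoter H3K4me3 in either genotype, where 39.1% of all genes had none, and 9 of these were in the chromosome 4 cluster. The others were Zfp934, Zfp936, Zfp957, Zfp977 and Zfp996, and the RefSeq start of Zfp936 lies far inside its annotated span. Zfp934 has no annotated start, and inside its span lay an H3K4me3 island with 423 reads in Setd5+/- and 372 in wild-type cells, and H3K27ac with 46 reads in Setd5+/- and 28 in wild-type cells.

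The genes for the silencing partners of KRAB zinc finger proteins were mostly covered by H3K36me3 and SETD5-V5. From a list of 19, 18 genes were found in the annotation. Of these, 16 had H3K36me3 at 25% or more in Setd5+/- cells, 17 in wild-type cells, and 15 had SETD5-V5. Over all genes the shares were 30.7% in Setd5+/- and 29.8% in wild-type cells for H3K36me3, and 17.5% for SETD5-V5. All 18 had H3K4me3 at the start in both genotypes, against 58.6% of all genes in Setd5+/- and 60.2% in wild-type cells. Among all genes with wild-type H3K36me3 at 25% or more, 95.7% had wild-type H3K4me3 at the start. Trim28, the corepressor, had 68.3% H3K36me3 in both genotypes, and Setdb1, the H3K9 methyltransferase, had 89.4% in Setd5+/- and 91.5% in wild-type cells. None of the 18 was higher by 25 points in Setd5+/- cells, where 4.83% of all genes were. Daxx, an H3.3 chaperone, was lower (4.60% of all genes), with 0% in Setd5+/- and 54.9% in wild-type cells. Cbx5, an HP1 gene, had 93.9% in Setd5+/- and 69.4% in wild-type cells. Pphln1, of the HUSH silencing complex, had 86.1% in Setd5+/- and 61.1% in wild-type cells. Both lie on chromosome 15, which is among the chromosomes given apart.

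Depth inside islands was lowest in the Setd5+/- H3K27ac list, with 1019278 reads, and highest in the Setd5+/- H3K4me3 list, with 5093126, and the SETD5-V5 list had 2464878. Of 8 neural stem cell markers 7 had H3K4me3 at the start in each genotype, all but Pax6, against 0 of 4 microglia and blood markers. Of the latter, Cd68 still had H3K27ac at the start and H3K36me3 over 56.6% in both genotypes. Pax6 had H3K4me3 away from its listed start, over 12.5% of span and flanks in Setd5+/- and 23.3% in wild-type cells. It had H3K36me3 over 56.1% in Setd5+/- and 70.4% in wild-type cells. Neuron markers had H3K4me3 at the start at 3 of 5, oligodendrocyte and astrocyte markers at 2 of 5, and endothelium and mesenchyme markers at 1 of 4. These counts were the same in Setd5+/- and wild-type cells. Of all genes, 58.6% in Setd5+/- and 60.2% in wild-type cells had H3K4me3 at the start, near the share of the neuron markers. Setd5 itself had H3K36me3 over 72.1% in Setd5+/- and 96.1% in wild-type cells, which does not check the genotype, since islands do not count alleles.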

How the data were processed

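The submitters' processing notes name FastQC, Bowtie2 2.2.3, SICER 1.1 and the genome GRCm38 (mm10). For H3K36me2, H3K36me3 and SETD5-V5, SICER ran with 800 bp windows, 2400 bp gaps and an FDR limit of 0.01, per the file headers. The other 8 of the 13 lists state no settings, and their widths are multiples of 200 bp. The whole number deposited beside each island was read, from its values, as the authors' read counts, not normalized. Of 16 samples, 3 inputs were not analysed here, and whether they served as controls is not given in the sources used here.

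Genes and promoter sequences came from RefSeq tables of GRCm38.p6. Starts were known for 55 members, and for the other 7 both annotated ends were used. Covered percent, promoter islands and clusters were computed with Python 3.11.15, numpy 2.4.6, pandas 2.3.3 and scipy 1.17.1, figures with matplotlib 3.10.9. The code was tested on simulated islands. Members and lists were chosen with earlier results of these data known. Named genes were all members on chromosome 4 and the 10 with the largest rise, the largest fall and the most SETD5-V5. The rule adds members with H3K4me3 or H3K27ac at the start in 1 genotype only, members within 3 points of the 25% limit and the longest cluster; others were named after their values were seen. Protein features of the members, planned, were not analysed here. With 1 library per group no test was made. Alternatives changed flanks, limits, island density, covered length, promoter window, cluster gap and chromosomes.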

Additional observations from a re-analysis of the deposited data

How the results depend on the processing

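With 12 alternatives to the settings above and 2 more chosen after seeing the data, 101 summary counts stayed within 1.5 times their main value and 26 did not. Keeping only islands at or above the median density of their list left H3K36me3 on 7 members in Setd5+/- and 6 in wild-type cells, changes of 2 higher and 2 lower, and starts with H3K27ac at 18 in Setd5+/- and 17 in wild-type cells (27 in Setd5+/- and 32 in wild-type cells before), H3K4me1 at 0 in Setd5+/- and 9 in wild-type cells, and wild-type H3K27me3 at 1. It also reversed Zfp935 (22.4 points higher in Setd5+/- cells), Zfp942 (12.1 higher) and Zfp930 (fell by 36.6); fewer islands remained by construction. At equal covered length, wild-type starts numbered 13 for H3K4me1 and 1 for H3K27me3. A limit of 50% gave H3K36me3 on 8 members in Setd5+/- and 9 in wild-type cells. Any overlap gave 27 for Setd5+/- H3K36me3, 1 and 1 for H3K36me2, and 5 in Setd5+/- and 7 in wild-type cells for H3K27me3. A limit of 50 points gave 3 higher and 0 lower, and flanks of 10 kb 3 lower. Without chromosomes 1, 4 and 15, SETD5-V5 covered 13 members, 2 of them without H3K36me3, and 1 had wild-type H3K27me3 at the start. A window of 2.5 kb gave 1 member with Setd5+/- H3K27me3, and the start base alone gave H3K4me1 at 0 in Setd5+/- and 11 in wild-type cells. The causes were not tested. Of 48 values of single members, 24 moved by more than their criterion and 3 reversed. No paired analysis was possible because each group has 1 library. Depth outside islands is unknown.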
